A study of Sus scrofa with 30 samples.

Results

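The miR-183 cluster comprises 3 miRNAs, miR-183, miR-96 and miR-182, whose genes lie side by side and are transcribed as a single primary transcript. Its members were followed in the plasma of irradiated Göttingen minipigs by taking the rows of the deposited count table that carry exactly the names miR-96, miR-182 or miR-183, with any arm. This gave 3 of 411 rows, ssc-miR-182, ssc-miR-183 and ssc-miR-96-5p. The cluster was selected on a measured value, the level of ssc-miR-182 at 17 days after irradiation. All values at that time point are therefore given as a description without a test.

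Small RNA was sequenced from plasma of 3 male Göttingen minipigs that were 4 months old when they received a total body irradiation (TBI) of 2.2 Gy. Blood was drawn 7 days (C7) and 1 day (C1) before TBI, which together form the pre-TBI baseline, and 8 times after it, the first 6 h after TBI (0d). The draws at 0d, 1d, 3d and 7d form the Early phase, those at 10d and 14d the Mid phase, 17d is called Late, and 20d is called LR (Late Regression). Every draw gave 1 library per animal. The study took these phases from a principal component plot of the same libraries, so they are not independent of the levels compared here. The animals were the control arm of a countermeasure study, with dextrose injected in place of the drug and oral antibiotics given when neutrophils were low. No unirradiated animals were sampled, so irradiation, age and repeated blood collection cannot be told apart.

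Of the 30 libraries, the 6 of minipig 3 from 3d to 20d held between 0 and 17 counts and were left out, with 1 count of the cluster among them. The 24 libraries used held 24341 to 550316 counts, with a median of 240612. They comprise 6 pre-TBI, 10 Early, 4 Mid, 2 Late and 2 LR libraries, and from 3d on they come from minipigs 1 and 2 only. In plasma, fewer releasing cells and less RNA released per cell cannot be told apart.

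In vertebrates the miR-183 cluster is known above all from sensory organs, where it is abundant in photoreceptors, hair cells and olfactory neurons and is needed for their maturation and upkeep. Each member represses target mRNAs by pairing of its seed, the bases near its 5′ end. The seeds of the 3 members are similar but not identical, so that their targets overlap in part. miR-182 is also known to repress BRCA1, a gene of DNA break repair, and miR-182 and miR-183 are often raised in epithelial tumours.

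The seed is the part of the sequence that decides which mRNAs a miRNA recognises. The seed of ssc-miR-96-5p, taken from the study's sequence list, is written in capitals.

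ssc-miR-96-5p seed: UUGGCAC

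In the RefSeq annotation of the pig (Sscrofa11.1), the 3 miRNA genes are neighbours in the order MIR183, MIR96 and MIR182, with the protein-coding genes UBE2H before MIR183 and NRF1 after MIR182. The counts were made on another build, so no coordinates are given.

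The 3 members differed in level and in spread. Levels are log2 CPM (counts scaled to a common library size) after TMM scaling, which corrects for libraries in which a few miRNAs take up many counts. They depend on ligation and capture as well as on the amount of RNA. A difference in level between members, within a library too, need not be one in amount. Where a row is called abundant, this refers to its counts. Over the 24 libraries ssc-miR-182 ranged from 8.05 to 17.43 log2 CPM, ssc-miR-183 from 8.73 to 16.55 and ssc-miR-96-5p from 6.76 to 9.89. The standard deviation (SD) of ssc-miR-183 was 2.12 and ranked 6th of 411 rows, and that of ssc-miR-182 was 2.02 and ranked 9th. ssc-miR-96-5p, with an SD of 0.71 near the median of 0.68 over all rows, ranked 187th. These values hold the 17d libraries that chose the cluster. Without them the SD was 2.06 for ssc-miR-183 (rank 6), 1.44 for ssc-miR-182 (rank 22) and 0.46 for ssc-miR-96-5p (rank 286), beside a median of 0.58. Its counts, as low as 7 in a library, leave a counting error that limits its fold changes.

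ssc-miR-182 is the member whose gene lies last in the cluster. In minipig 1 it had 56 counts at C7 and 47 at C1, Early counts of 41, 130, 304 and 188 in order of time, Mid counts of 36 and 43, and 50 counts at Late and 292 at LR. In minipig 2 it had 294 counts at C7 and 879 at C1, Early counts of 472, 346, 387 and 127, Mid counts of 184 and 82, and 11235 counts at Late and 18413 at LR. In minipig 3 it had 1664 counts at C7, 981 at C1, 262 at 0d and 257 at 1d. The libraries of minipig 2 at 17d and 20d stood far above every other library in counts and in level, and the next highest level was that of minipig 2 at 10d.

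On the log2 CPM scale, pre-TBI libraries ranged from 8.64 to 11.57 for ssc-miR-182 with a median of 11.22, and Early libraries from 8.05 to 10.53 with a median of 9.48. The groups overlapped, with 1 of 10 Early libraries (minipig 1 at 0d) below all pre-TBI libraries and none above. The Mid libraries were at 9.75 and 8.87 in minipig 1 and at 12.07 and 9.51 in minipig 2, for 10d and 14d. Only the 10d library of minipig 2 lay above the pre-TBI range.

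The 17d libraries, which chose the cluster, were at 11.22 log2 CPM of ssc-miR-182 in minipig 1 and 17.43 in minipig 2. In minipig 2 this miRNA was the most abundant of all 411 at 17d, with 17.7% of counts (95% Wilson interval 17.4 to 18%, which covers counting error only). In minipig 1 it held 0.171% at 17d (0.130 to 0.226%), a level within the pre-TBI range. At 20d it stood at 14.64 in minipig 2, where it ranked 3rd with 3.35% of counts (3.30 to 3.39%), and at 9.78 in minipig 1. The high level was thus present in consecutive blood samples of 1 animal and absent from both samples of the other.

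**Figure D1:**
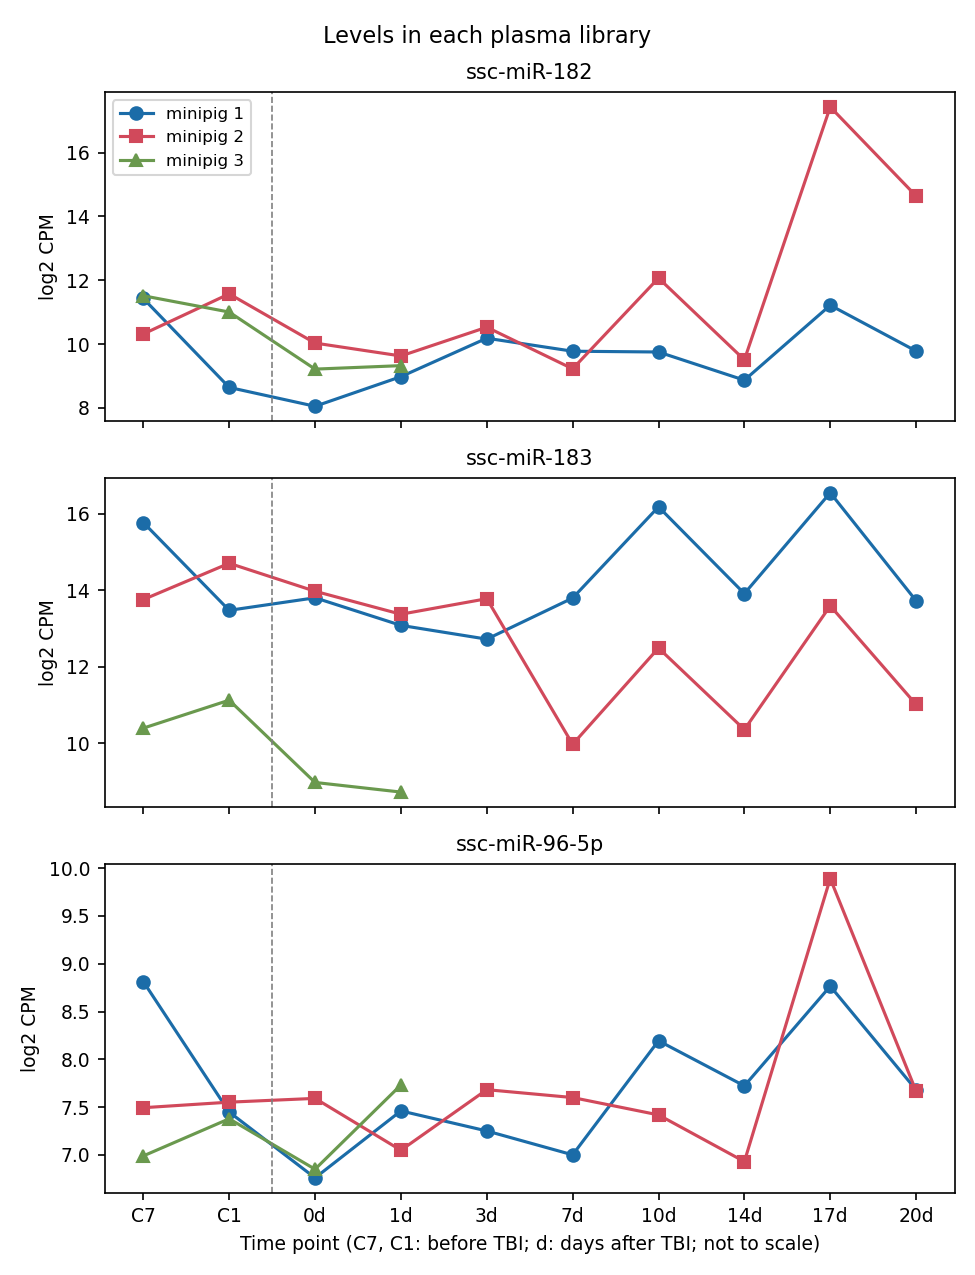
Level of the 3 cluster members in each of the 24 plasma libraries, with time point on the x axis (not to scale, the dashed line marks TBI) and log2 CPM after TMM scaling on the y axis, 1 line for each minipig. ssc-miR-182 reached 17.43 at 17d and 14.64 at 20d in minipig 2, while in minipig 1 it was at 11.22 and 9.78.

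ssc-miR-183 is the member whose gene lies first. In minipig 1 it had 1141 counts at C7 and 1368 at C1, Early counts of 2279, 2272, 1780 and 3082 in order of time, Mid counts of 3135 and 1444, and 2024 counts at Late and 4539 at LR. In minipig 2 it had 3220 and 7744 counts before TBI, Early counts of 7322, 4693, 3708 and 215, Mid counts of 247 and 149, and 789 counts at Late and 1491 at LR. In minipig 3 it had 766, 1072, 222 and 169 counts at C7, C1, 0d and 1d. These counts are not scaled to the library totals, which differ between draws, and the levels follow.

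The level of ssc-miR-183 differed between the animals before TBI, at 15.77 and 13.48 log2 CPM in minipig 1, 13.76 and 14.71 in minipig 2, and 10.40 and 11.13 in minipig 3. Early libraries ranged from 8.73 to 13.98 with a median of 13.23, and 3 of 10 (minipig 2 at 7d and minipig 3 at 0d and 1d) lay below all pre-TBI libraries. Mid libraries were at 16.19 and 13.92 in minipig 1 and at 12.49 and 10.36 in minipig 2. At Late they were at 16.55 and 13.60, and at LR at 13.73 and 11.02, for minipigs 1 and 2. Minipig 1 at 10d and 17d lay above the pre-TBI range, and minipig 2 at 14d lay below it, while minipig 2 at 17d was near its own C7 level.

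The 3 highest ssc-miR-183 levels of minipig 1, at C7, 10d and 17d, came from its 3 smallest libraries, with totals of 24341, 59291 and 29159 counts. For ssc-miR-182 the highest levels of minipig 1, 11.43 at C7 and 11.22 at 17d, came from its smallest libraries. In minipig 2 the levels of 12.07 at 10d and 17.43 at 17d came from its smallest libraries, of 35762 and 63441 counts. Its 20d level of 14.64 came from its largest, of 550316 counts. Over all 24 libraries, Spearman's rho between the log2 total and the level was -0.48 for ssc-miR-183, -0.33 for ssc-miR-96-5p and -0.05 for ssc-miR-182, where libraries of 1 animal share that animal. The part of library size in these levels was not tested. On counts thinned to the smallest library, the Early change of ssc-miR-183 was -1.29 and the LR change -1.91, against -1.10 and -1.25 on the full counts.

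ssc-miR-96-5p, from the middle gene, was the least abundant member in every library. Its pre-TBI libraries ranged from 6.99 to 8.81 log2 CPM with a median of 7.47, and its Early libraries from 6.76 to 7.73 with a median of 7.35. Mid libraries were at 8.19 and 7.72 in minipig 1 and 7.42 and 6.93 in minipig 2, and the LR libraries were at 7.68 and 7.67. At 17d it was at 8.77 in minipig 1, from 9 counts, and at 9.89 in minipig 2, from 60 counts. The 17d library of minipig 2 was the only one above the pre-TBI range, while 2 of 10 Early and 1 of 4 Mid libraries lay below it.

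The 3 genes share a transcript, and the members were also compared by their count ratios. A ratio within a library does not depend on the scaling of libraries. The limit on the ssc-miR-183 row given further below holds for its ratios too. In minipig 1 the count ratio of ssc-miR-183 to ssc-miR-182 ranged from 5.86 to 87.1 with a median of 24.7 over 10 libraries. In minipig 3 it ranged from 0.460 to 1.09 over 4 libraries. In minipig 2 it ran from 8.81 to 15.5 in the 5 libraries up to 3d, from 1.34 to 1.82 at 7d, 10d and 14d, and was 0.0702 at 17d and 0.0810 at 20d. The animals differed in this ratio before TBI already, at 20.4 and 29.1 in minipig 1, 11.0 and 8.81 in minipig 2, and 0.460 and 1.09 in minipig 3.

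The 17d and 20d ratios of minipig 2 followed from opposite positions of both members. ssc-miR-182 was 6.48 log2 units above the mean of this animal's own pre-TBI libraries at 17d and 3.69 above it at 20d, rank 1 of 411 both times. ssc-miR-183 was below its own mean, with a difference of -0.64 at 17d (rank 317) and of -3.22 at 20d (rank 401). ssc-miR-96-5p was 2.37 above at 17d (rank 12) and 0.14 above at 20d (rank 158).

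**Figure D2:**
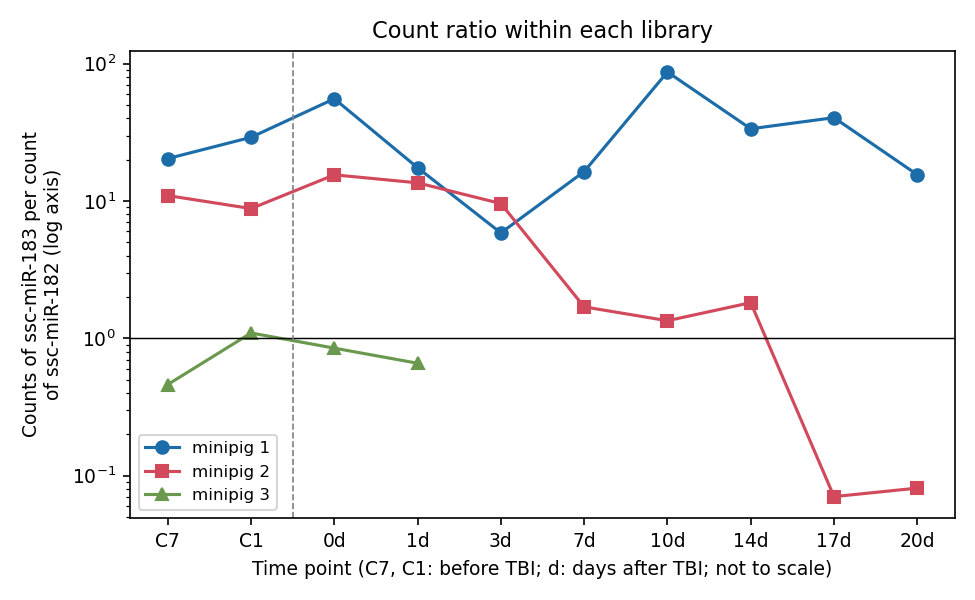
Count ratio of ssc-miR-183 to ssc-miR-182 within each library (y axis, log scale) by time point (x axis, not to scale, dashed line at TBI), 1 line for each minipig. Minipig 1 stayed between 5.86 and 87.1, while minipig 2 went from 9.58 at 3d to 0.0702 at 17d.

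The ratio of ssc-miR-182 to ssc-miR-96-5p ranged from 2.26 to 8 in minipig 1 and from 3.10 to 24.5 in minipig 3. In minipig 2 it ranged from 3.18 to 26.3 up to 14d, and was 187 at 17d and 131 at 20d. Thus ssc-miR-182 stood apart from both of its neighbours in these libraries, from ssc-miR-96-5p less than from ssc-miR-183.

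The levels of ssc-miR-182 and ssc-miR-183 were compared across libraries, and no relation passed the test. Without the 17d libraries, Pearson's r was -0.04 (permutation within minipigs, p = 0.855) and Spearman's rho was 0.07 (p = 0.788, 100000 resamples) over 22 libraries, the only relation between members that was tested. With the 2 libraries farthest from the median of ssc-miR-182 left out, r was 0.15. Leaving out whole animals, rho was 0.52 (p = 0.0505) without minipig 1, -0.15 (p = 0.713) without minipig 2 and 0.04 (p = 0.885) without minipig 3. Within minipig 1 r was 0.46 and rho -0.02, and within minipig 2 r was -0.02 and rho 0.35, over 9 libraries each and as a description. Over all 24 libraries rho was 0.32 between ssc-miR-182 and ssc-miR-96-5p and 0.42 between ssc-miR-183 and ssc-miR-96-5p, again as a description. Without the 17d libraries these were 0.18 and 0.36, and Pearson's r of ssc-miR-182 with ssc-miR-96-5p was 0.27 in place of 0.65.

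Each phase was then compared with pre-TBI by edgeR's quasi-likelihood test, with p-values adjusted by Benjamini-Hochberg over all 411 rows. The phases share the pre-TBI libraries. No tested time point or phase gave an adjusted p under 0.05 for any of the 3 members.

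At Early, ssc-miR-182 had a mean of 9.50 ± 0.70 log2 CPM (SD, n = 10) against 10.75 ± 1.13 (n = 6) before TBI. The fitted log2 fold change was -1.39 (standard error, SE, 0.65), with an unadjusted p of 0.0443 and an adjusted p of 0.246. The mean difference was negative in each animal, at -0.79, -1.09 and -1.99 in minipigs 1, 2 and 3. A two-sided exact permutation test, in which time labels were moved within minipigs, gave a difference of -1.25 with p = 0.0215 over 1350 arrangements. The unadjusted edgeR p was under 0.05 in 8 of 11 alternatives, and without the 17d libraries it was 0.0181 (adjusted p = 0.133). In the others it was 0.195 on thinned counts, 0.199 without minipig 3 and 0.0651 without the C7 library of minipig 1. The permutation p passed 0.05 with all 3 animals but was 0.0667 without minipig 2 and 0.156 without minipig 3.

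ssc-miR-183 had an Early log2 fold change of -1.10 (SE 0.86, adjusted p = 0.435), and ssc-miR-96-5p one of -0.23 (SE 0.25, adjusted p = 0.980). Within the animals the Early difference of ssc-miR-183 was -1.27, -1.46 and -1.91, negative in 3 of 3, and that of ssc-miR-96-5p was -1.01, -0.04 and 0.11. Without the C7 library of minipig 1, the smallest, the change of ssc-miR-183 was -0.41 at Early (adjusted p = 0.935 by edgeR), -0.018 at 3d in place of -0.83, and 1.12 at Mid in place of 0.38. The exact permutation test gave p = 0.252 for ssc-miR-183 and p = 0.251 for ssc-miR-96-5p. With the minipig as a block in the edgeR fit, the Early change of ssc-miR-183 was -1.39 with an unadjusted p of 0.0292 and an adjusted p of 0.203, in a fit in which 22.4% of all rows passed the unadjusted threshold. At this phase 18.7% of all 411 rows passed an unadjusted p of 0.05 and 0% passed after adjustment, so 1 of 3 members at an unadjusted p is read against that share. By edgeR 77 rows passed the unadjusted threshold, 33 passed the adjusted one by DESeq2, and DESeq2 gave no p for ssc-miR-182 because it set aside its extreme counts.

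At Mid no member passed the test, adjusted or not. The log2 fold changes were -0.40 (SE 0.85) for ssc-miR-182, 0.38 (SE 1.09) for ssc-miR-183 and 0.04 (SE 0.34) for ssc-miR-96-5p, each with an adjusted p of 0.978. ssc-miR-183 differed in direction between the animals, at 0.42 in minipig 1 and -2.81 in minipig 2, a difference that was not tested. The Mid libraries come from minipigs 1 and 2 only, while the baseline also holds minipig 3. Its pre-TBI mean of ssc-miR-183 was 10.77 log2 CPM, against 14.63 and 14.24 in minipigs 1 and 2. With the minipig as a block in the edgeR fit, ssc-miR-183 was at -0.83 at Mid (adjusted p = 0.90). At 10d it was at -0.27 in place of 1.11. The exact permutation test gave p = 0.472, 1.00 and 0.944 for ssc-miR-182, ssc-miR-183 and ssc-miR-96-5p. With only 36 arrangements, p moves in coarse steps. The permutation test was run 6 times in all, over both phases, and these p-values are not adjusted. By edgeR 5.35% of rows (22) passed the unadjusted threshold at Mid and 0% the adjusted one, and by DESeq2 31 and 0 rows did.

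At LR the fitted log2 fold change of ssc-miR-182 was 2.68 (SE 0.95), with an unadjusted p of 0.00993 and an adjusted p of 0.453. It rested on minipig 2, whose own difference was 3.69 against -0.25 in minipig 1. Without minipig 2 the change was -1.39, and without minipig 1 it was 3.45. Each of these fits has 1 LR library, so only the size of the change is given. The 2 LR libraries come from 2 animals, so the estimate describes these libraries more than a phase. ssc-miR-182 was the top rise of minipig 2 at 17d as well, in the contrast that chose the cluster, so its level at 20d in the same animal is not an independent sign.

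ssc-miR-183 had an LR log2 fold change of -1.25 (SE 1.5, adjusted p = 0.719), and ssc-miR-96-5p one of 0.12 (SE 0.38, adjusted p = 0.906). With the minipig as a block, ssc-miR-183 was at -2.35 (unadjusted p = 0.0472, adjusted p = 0.372) and ssc-miR-182 at 1.96 (unadjusted p = 0.0616, adjusted p = 0.372). In that fit 11.9% of all rows passed the unadjusted threshold. Against the own pre-TBI mean, ssc-miR-183 differed by -0.90 in minipig 1, whose LR level was above its C1 level, and by -3.22 in minipig 2. No LR library lay below all pre-TBI libraries, and without the C7 library of minipig 1 the LR change was -0.70. Without the block, 5.6% of rows (23) passed the unadjusted threshold at LR by edgeR and 0% the adjusted one, while DESeq2 gave 58 and 0.

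At Late, which is described only, the fitted log2 fold change was 5.44 for ssc-miR-182, 1.55 for ssc-miR-183 and 1.97 for ssc-miR-96-5p. The own differences of minipigs 1 and 2 were 1.18 and 6.48 for ssc-miR-182, 1.93 and -0.64 for ssc-miR-183, and 0.63 and 2.37 for ssc-miR-96-5p. Minipig 1 at 17d, with 29159 counts, had a median difference of 0.21 over all 411 rows, and minipig 2 one of -0.05. In minipig 1 ssc-miR-182 ranked 130th among the rises at 17d and 289th at 20d.

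**Figure D3:**
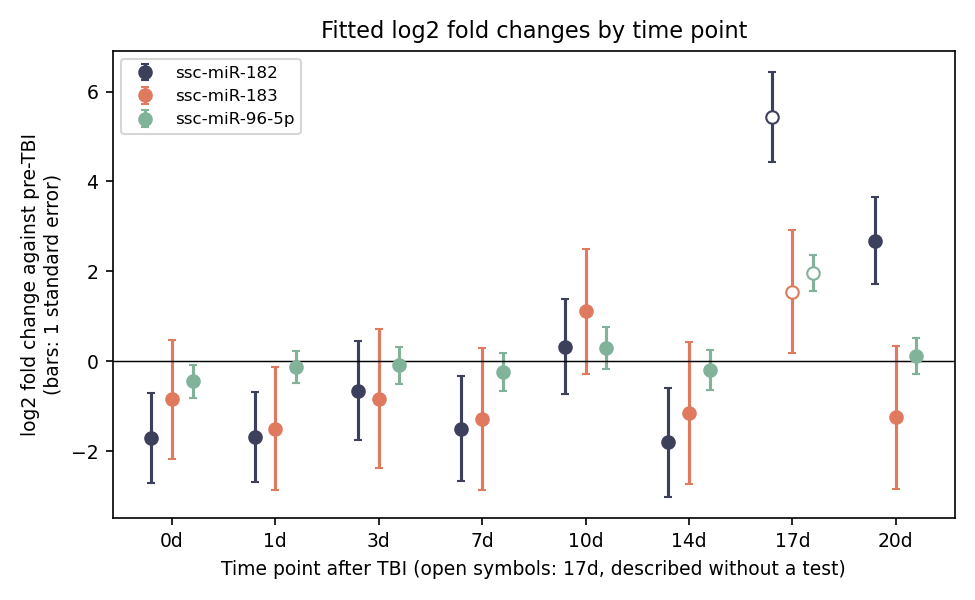
Fitted log2 fold change of each member against pre-TBI (y axis, bars are 1 standard error) at each time point after TBI (x axis), from a fit of all 411 rows. Open symbols mark 17d, which is described without a test, so the bars there are not to be read as one. The change of ssc-miR-182 was 5.44 at 17d against 2.68 at 20d.

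The single time points gave the same picture for ssc-miR-182, with log2 fold changes of -1.71, -1.69, -0.65 and -1.50 in the order of the Early draws, and adjusted p from 0.456 to 0.953. Without a block, only 20d had an unadjusted p under 0.05 for this miRNA, at 0.0123 with an adjusted p of 0.448. With the minipig as a block, ssc-miR-182 was also past it at 0d, at -1.91 (unadjusted p = 0.0491, adjusted p = 0.417), and stayed past it at 20d (2.09, unadjusted p = 0.0459). For ssc-miR-183 the changes from 0d to 7d were -0.85, -1.50, -0.83 and -1.28, with adjusted p from 0.605 to 0.964. With the minipig as a block, ssc-miR-183 was at -2.68, -2.51 and -2.47 at 7d, 14d and 20d, with unadjusted p of 0.0251, 0.0327 and 0.0331 and adjusted p of 0.337, 0.335 and 0.274. In the blocked fit 10.2, 13.1, 13.9 and 17.3% of all rows passed the unadjusted threshold at 0d, 7d, 14d and 20d. For ssc-miR-96-5p no time point other than 17d reached a change of 0.5 in either direction.

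The share of all rows with an unadjusted p under 0.05 was 8.52, 12.2, 8.52 and 8.27% in the 4 Early draws in order of time, 7.3% and 9% in the Mid draws and 7.06% at 20d. The adjusted share was 1.22, 0.243 and 0.73% on 3d, 14d and 20d and 0% for the other tested draws. DESeq2 gave 0, 25, 21 and 0 adjusted calls in the 4 Early draws in order of time, 0 and 2 in the Mid draws and 6 at 20d, and no member was among the rows called by edgeR after adjustment. The C1 and C7 libraries did not differ beyond their spread either, with log2 fold changes of -0.33 for ssc-miR-182, -0.81 for ssc-miR-183 and -0.25 for ssc-miR-96-5p and an adjusted p of 0.997 for each.

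The rows whose levels ran most like those of each member came from other families. For ssc-miR-182 they were ssc-miR-101 (Spearman's rho 0.82 over the 24 libraries), ssc-miR-30b-5p (0.79), ssc-miR-98 (0.76), ssc-miR-29a (0.75) and ssc-miR-29c (0.73). For ssc-miR-96-5p they were ssc-miR-9797-3p (0.68), ssc-miR-194a (0.60), ssc-miR-2411, ssc-miR-130b and ssc-miR-9 (0.59 each). ssc-miR-183 ranked 159th in likeness to ssc-miR-182, and ssc-miR-182 159th in likeness to ssc-miR-183. The rows were picked over all 24 libraries, with those of 17d that chose the cluster. Without 17d, rho was 0.67 to 0.79 for the rows named for ssc-miR-182 and 0.47 to 0.60 for those of ssc-miR-96-5p. For the rows of ssc-miR-183 named below it was 0.94 to 0.97. These are descriptions over libraries that share animals.

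For ssc-miR-183 the 5 most similar rows were ssc-miR-124a (rho 0.94), a miRNA of neurons, ssc-miR-146b (0.94) and ssc-miR-146a-5p (0.94), both known from inflammatory signalling, ssc-miR-490-3p (0.93) and ssc-miR-186 (0.91). Of these, miR-146a and miR-146b belong to 1 family, and the others belong to different families. In minipig 1 the 6 rows had nearly the same counts. At C7 ssc-miR-183 had 1141 counts against 1124 to 1173 for the other 5, at 10d 3135 against 3132 to 3308, and at 17d 2024 against 2075 to 2158. Over the 10 libraries of minipig 1 the range of the 6 levels was 0.06 to 0.52 on the log2 scale, and together they held 3.99 to 43.3% of counts.

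In minipig 2 the range of these 6 levels was 0.24 to 0.46 up to 3d and between 0.59 and 3.76 from 7d on. At 17d ssc-miR-183 had 789 counts against 75 to 380 for the other 5, and at 20d 1491 against 105 to 1213. There ssc-miR-183 was above all 5, and in minipig 3 the range was 0.99 to 3.24. Reads were not analysed here, so whether the row of ssc-miR-183 holds reads of this miRNA alone was not tested, and its levels are to be read with that limit. The same limit holds for the other 5 rows, ssc-miR-124a and ssc-miR-146a-5p among them.

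**Figure D4:**
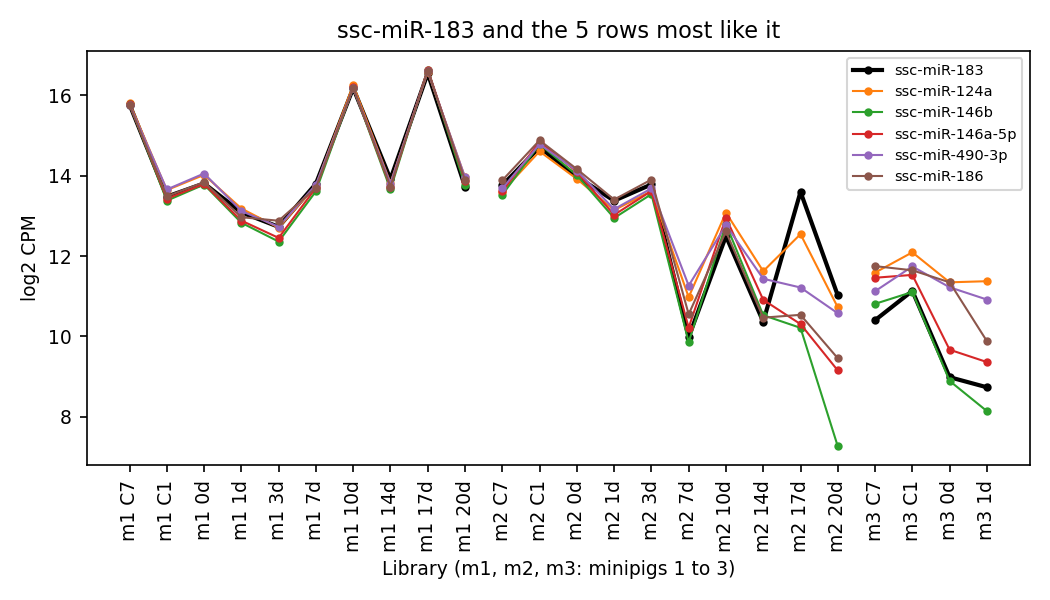
Levels of ssc-miR-183 and the 5 rows most like it (y axis, log2 CPM) in each library (x axis, m1 to m3 are minipigs 1 to 3). The 6 lines lie within 0.52 log2 units of each other in minipig 1 and spread to 3.39 at 17d and 3.76 at 20d in minipig 2.

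In minipig 2 the rise of ssc-miR-182 came together with that of a few other miRNAs. At 17d the largest rises over this animal's own pre-TBI mean were ssc-miR-182 (6.48), ssc-miR-181a (5.45), ssc-miR-204 (4.83), ssc-miR-9-1 (4.77) and ssc-miR-181b (3.79). At 20d ssc-miR-182 (3.69), ssc-miR-181a (2.53), ssc-miR-204 (2.44) and ssc-miR-9-1 (2.14) were again the first 4 in that order. These genes were named after their values were seen. miR-204 is known from retinal pigment epithelium and miR-9 from neural tissue, while miR-181a is known from lymphocytes and many other cells.

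In minipig 1 the same miRNAs did not stand out, with differences of -2.11 for ssc-miR-181a, 1.93 for ssc-miR-204 and 1.07 for ssc-miR-9-1 at 17d and of -0.64, -1.21 and -0.49 at 20d. ssc-miR-182 had counts of 36 to 304 in every library of minipig 1.

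**Figure D5:**
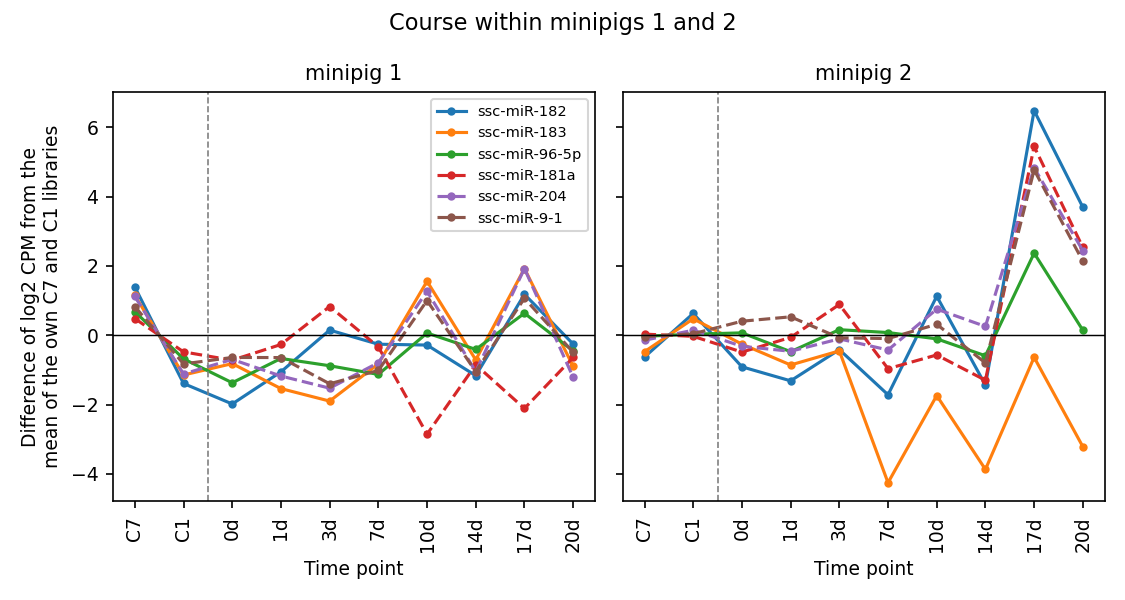
Difference of log2 CPM from the mean of the same animal's C7 and C1 libraries (y axis) by time point (x axis, dashed line at TBI) for the 3 members (solid lines) and for ssc-miR-181a, ssc-miR-204 and ssc-miR-9-1 (dashed lines), in minipigs 1 and 2. In minipig 2 ssc-miR-182, ssc-miR-181a, ssc-miR-204 and ssc-miR-9-1 were 4.77 to 6.48 above the own mean at 17d, while ssc-miR-183 was at -0.64.

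Lists of miRNAs known from the tissues and processes of the cluster were set beside it. Of the 18 neural and sensory rows, 3 had an unadjusted p under 0.05 at Early, all lower (ssc-miR-218, ssc-miR-218-5p and ssc-miR-218b, at -0.64, -0.64 and -0.63), and none at Mid or LR. ssc-miR-218 and ssc-miR-218-5p have identical values, so these are 2 measurements. At Early 18.7% of all 411 rows were called, most of them lower, and 3 of 18 is near that share. Of these 18 rows the one with the most counts was ssc-miR-124a, at -1.08 at Early, 0.45 at Mid and -1.12 at LR. Its counts were nearly those of ssc-miR-183 in minipig 1, so the limit given above applies. The list's median change was -0.02, 0.20 and 0.26 at Early, Mid and LR, beside 0.02, 0.05 and -0.01 over all rows.

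The list of miRNAs known to target genes of DNA double-strand break repair holds 20 rows, ssc-miR-182 and ssc-miR-96-5p among them. At Early 3 of them were lower than before TBI with an unadjusted p below 0.05, namely ssc-miR-146a-3p (-1.47), ssc-miR-182 (-1.39) and ssc-miR-421-5p (-0.96, adjusted p = 0.0860 by edgeR), and 1 was higher, ssc-miR-24-3p (0.53). At LR ssc-miR-182 (2.68) was higher and ssc-miR-421-5p (-1.57) lower, and at Mid none passed. The row with the most counts, ssc-miR-146a-5p, was at -1.23, 0.36 and -1.30, with the same limit as ssc-miR-124a. The 4 of 20 rows called at Early are likewise near the 18.7% of all rows, and at LR 5.6% of all rows were called. The list's median was -0.21 at Early, -0.05 at Mid and 0.13 at LR.

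The epithelial list, for tissue in which miR-182 and miR-183 are also expressed, had 2 rows and no call, with ssc-miR-205 at -0.41 at Early, 0.20 at Mid and -0.24 at LR and medians of -0.12, 0.03 and -0.08. ssc-miR-1271, which is known to share the seed of miR-96 and was looked up after its values were seen, had means of 7.71 ± 0.28 log2 CPM (SD, n = 6) before TBI and 8.18 ± 0.27 (n = 10) at Early. At 17d it was at 6.68 in minipig 1, from 2 counts, and at 8.26 in minipig 2, from 19 counts.

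Markers of blood cells and liver were examined because plasma holds RNA released from them. The erythroid list (4 rows, ssc-miR-486 with the most counts) had 2 lower calls at Mid, ssc-miR-451 (-2.42) and ssc-miR-16 (-2.23), and ssc-miR-486 was at -0.04, -0.80 and -1.04 at Early, Mid and LR. The platelet list (5 rows) had ssc-miR-126-5p higher at Early (0.83) and LR (1.75), ssc-miR-425-5p lower at Early (-0.93) and ssc-miR-425-3p higher at Mid (0.61), with ssc-miR-191, the most abundant, at 0.76, -1.11 and -1.28. The liver list (5 rows) had ssc-miR-122 lower at Early (-0.79) and LR (-1.39) and ssc-miR-192, its most abundant row, higher at LR (1.48), with ssc-miR-192 at 0.49 and 0.60 at Early and Mid. The lymphocyte list (4 rows) had no call, with ssc-miR-342 at 0.56, -0.56 and -0.60. All of these are unadjusted edgeR calls, and no row of any list passed after adjustment in these phases. They stand beside unadjusted shares of 18.7% of all 411 rows at Early, 5.35% at Mid and 5.6% at LR.

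Median changes of these lists at Early, Mid and LR were 0.05, -1.87 and -0.89 for erythroid, 0.24, 0.25 and 0.14 for platelet, 0.13, -0.13 and -0.28 for lymphocyte and -0.21, 0.17 and 0.20 for liver rows.

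In the library of minipig 2 at 17d, in which ssc-miR-182 was highest, the erythroid rows held 1.18% of counts, just under the pre-TBI range of 1.23 to 10.2%. Platelet rows held 0.851% (pre-TBI 1.10 to 3.01%), liver rows 0.309% (0.419 to 0.678%), lymphocyte rows 0.199% (0.129 to 0.201%), epithelial rows 0.180% (0.152 to 0.913%) and neural and sensory rows 3.86% (1.69 to 6.32%). Rows of the neural and sensory list moved apart. Against the own pre-TBI mean, ssc-miR-204 was at 4.83, ssc-miR-9-1 at 4.77 and ssc-miR-124a at -1.56. As shares of all counts, no list was above its pre-TBI range in that library, and none of their rows was at 0. There ssc-miR-182 alone held 17.7% of counts, and ssc-miR-181a had 7926 of 63441 counts. Such rises lower the share of every other row, and shares without these rows were not computed. At 20d in minipig 2 the liver rows held 1.23%, above both their pre-TBI range and the highest share of 0.977% in the 22 libraries other than these, and the other lists were within or below their pre-TBI ranges. The part of blood cell or liver RNA in the level of ssc-miR-182 was not tested.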

How the data were processed

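The authors built small RNA libraries from plasma with the TruSeq kit, sequenced them on a NextSeq, removed adapters by Cutadapt, mapped the reads by Bowtie (version 2.2.3.0 per the labels) to the pig genome (ssc5) and to miRBase, and quantified known miRNAs with miRDeep2. The deposited values are raw counts, whole numbers per miRNA and library without normalization. Reads were not analysed here. PCR copies were not separated, so intervals cover counting error only.

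Libraries under 1000 counts were left out. edgeR 4.0.16 in R 4.3.3 was run on the counts as deposited, with TMM, a CPM minimum of 0.5 in 3 libraries or more (passed by all 411 rows), and 5 phases (or 9 time groups) in 1 quasi-likelihood fit. A standard error was taken as the ratio of the fold change (log2) to the root of the F statistic. Where the fitted spread lies under Poisson counting, as for ssc-miR-96-5p, edgeR raises p and leaves F, so p and standard error need not match. Levels are log2 CPM with a prior count of 2. DESeq2 1.42.0 and other scalings, filters and library choices were alternatives. Further steps used Python 3.11.15 with numpy 2.4.6, pandas 2.3.3, scipy 1.17.1 and matplotlib 3.10.9. The fit was tested on simulated data.

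Libraries of 1 animal pair by design. Their deviations from phase means correlated at 0.169 on average over 78 pairs from the same minipig and at -0.102 over 130 pairs from different minipigs, so a fit with the minipig as a block is given where it moved a call. P-values measure the spread among libraries of 3 animals.

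The members and lists were chosen with earlier results of these data known. Named rows are the members, the 5 rows most like each by Spearman's rho, and from each list those with an unadjusted p under 0.05 at Early, Mid or LR and the most abundant. Naming by shared seed could not be applied, since mature sequences were not used here.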

Additional observations from a re-analysis of the deposited data

Results flagged for a closer look

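ssc-miR-96-5p stood at 8.81 log2 CPM in the C7 library of minipig 1, from 9 counts, far above the other 5 pre-TBI libraries. The gap to the nearest of them took up 0.692 of the group's whole range. It was 1 of 9 groups examined in this way, and chance gives such a gap in about 1 in 20 groups. This library had the smallest total, 24341 counts, and whether the level follows from that was not tested.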

How the results depend on the processing

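Over 30 comparisons of a member with pre-TBI, 326 of 360 alternative values kept their direction and their side of an adjusted p of 0.05, 31 turned direction and 3 gained a call. LR and 20d are the same libraries against the same baseline and are both counted, so their gained calls are 1 result. The 326 include the DESeq2 values of ssc-miR-182 at Early, Mid and LR, which had no p and kept only their direction. Both other filters, which left every value as it was, are not counted. Calls gained were ssc-miR-182 at Early with only both groups in the fit (-1.38, adjusted p = 0.0322 by edgeR) and at LR and 20d without minipig 1 (3.45 each). The fits without minipig 1 hold only the 20d library of minipig 2 at LR and 20d, so no p is given for them. The unadjusted call of ssc-miR-182 held in 8 of 11 alternatives at Early and 9 of 11 at LR. The 9 include the fit without minipig 1. With library size only, ssc-miR-96-5p at Mid was -0.037 and the permuted difference of ssc-miR-183 at Mid -0.0061. With the minipig as a replicate block, ssc-miR-183 was -0.83 at Mid and -0.27 at 10d and ssc-miR-96-5p -0.021 at Mid. Without 17d libraries ssc-miR-96-5p at LR was -0.0024. With counts thinned to the smallest library, ssc-miR-96-5p was -2.73 at LR and 20d, -1.38 at Mid and -0.96 at 10d, and ssc-miR-182 0.22 at Mid. With DESeq2 ssc-miR-96-5p at 3d was 0.020, and 0.15 without minipig 1's C7 library (this choice was made after the data were seen). The correlation without the 2 farthest libraries was 0.15. The cause of these changes was not tested.

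Leaving out each minipig in turn, ssc-miR-182 ranged from -1.64 to -1.15 at Early, -1.63 to 0.060 at Mid, -1.28 to 0.86 at 10d and -1.39 to 3.45 at LR and 20d. ssc-miR-183 ranged from -1.66 to 1.40 at Mid, -1.31 to 0.32 at 3d and -0.92 to 2.11 at 10d. ssc-miR-96-5p ranged from -0.46 to 0.023 at Early, -0.28 to 0.43 at Mid, -0.11 to 0.34 at LR and 20d, -0.48 to 0.047 at 1d, -0.28 to 0.30 at 3d, -0.60 to 0.14 at 7d and -0.55 to 0.23 at 14d. Permuted differences ranged from -1.44 to -0.94 (ssc-miR-182, Early), -1.19 to 2.35 (ssc-miR-183, Mid), -0.53 to 0.064 (ssc-miR-96-5p, Early) and -0.26 to 0.30 (Mid), and Pearson's r from -0.12 to 0.20. Calls over all rows moved too. At Early the adjusted count, 0 in the main setting, was 12 with DESeq2 size factors, 13 with library size only, 33 with DESeq2, 38 with both groups alone, 24 without 17d libraries, 27 without the C7 library of minipig 1 and 8 without minipig 2. The unadjusted count was 77 at Early, 23 thinned and 35 without minipig 3. At Mid it was 22, 11 with library size only, 4 thinned and 38 without that C7 library. At LR it was 23, 58 with DESeq2, 49 with the block and 35 without 17d libraries.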
